A study of Mus musculus with 12 samples.

Results

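YAP, TAZ and the 4 TEAD proteins form the transcriptional output of the Hippo pathway, and their genes are described here together with 4 of their best known targets. The 10 genes were Yap1, Wwtr1 (which encodes TAZ), Tead1, Tead2, Tead3, Tead4, Ctgf, Cyr61, Ankrd1 and Amotl2, taken by name from the deposited table of 23406 genes. All 10 were in the table and all 10 passed the filter on low values. Total RNA was sequenced from mouse mammospheres at passage 2, which are floating spheres grown in suspension from mammary cells. The donors were C57BL/6J mice, either wild type (WT) or without p66Shc (KO), which is the longest protein made from Shc1, and they were 2 months (young) or 12 months (aged) old. The 4 groups, in the order young WT, aged WT, young KO and aged KO, had 3 libraries each. The KO is described as the p66Shc knock-out without naming its allele, and all mammospheres came from cultured passages rather than fresh tissue. The series counts 3 young and 3 aged mice without tying each library to 1 mouse, so every p-value measures the spread between these libraries.

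The libraries held 31845169 to 109079737 reads in genes, the highest total being replicate 3 of aged KO. Shc1 was detected in all libraries, at 266.5 to 311.0 CPM (read counts scaled to the library's TMM-adjusted size by the authors) in young WT, 202.9 to 219.6 in aged WT, 208.1 to 208.7 in young KO and 162.3 to 177.5 in aged KO. These values sum the reads of all Shc1 isoforms, so they check the KO label only in part. Replicate 1 of young WT stood apart from its group, with a median absolute log2 difference of 0.153 from the mean of the others. The same measure was 0.0662 to 0.127 for every other library. As a check of the tissue, all 10 luminal and all 10 basal epithelial markers had reads in each group. Their summed levels were 334.9 to 411.8 and 78.24 to 94.93 CPM in young WT. Some were low there, with 0 to 8 reads per library for Cnn1. Elf3, Krt5, Trp63 and Oxtr averaged 0.5417, 0.767, 0.8433 and 0.502 CPM in young WT. Fibroblast markers summed to 11770 to 19690 CPM over the 12 libraries, above both epithelial sums in every group. The check therefore shows that epithelial transcripts were present and not that most cells were epithelial.

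In the Hippo pathway, the kinases MST1 and MST2 (genes Stk4 and Stk3) activate LATS1 and LATS2, which phosphorylate YAP and TAZ and keep them in the cytoplasm or send them for degradation. When the kinases are inactive, YAP and TAZ enter the nucleus and bind TEAD proteins, since neither coactivator binds DNA itself. Cell shape, contact between cells and actin tension feed into this balance, and in the mammary gland TAZ and YAP have been linked to basal and stem cell properties. Much of this control acts on the proteins, so the levels of the Yap1 and Wwtr1 transcripts and the activity of their products are separate quantities, and transcripts alone were measured here.

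TEAD proteins recognise the element CATTCC, read as GGAATG on the other strand. It was searched on both strands of the RefSeq promoter windows on GRCm38.p6, which run from 250 bases before to 50 bases after a gene's start. Windows were at hand for 7 of the 10 genes (Yap1, Wwtr1, Tead2, Tead3, Cyr61, Ankrd1 and Amotl2) and none were used for Ctgf, Tead1 and Tead4. Only the first window listed for each gene was used. Of the 27025 genes with a window, 14.6% held the element in it and 1.35% held the element more than once. The element was found once in the windows of Yap1, Wwtr1, Tead3, Cyr61 and Amotl2, at 2 places in that of Ankrd1, and these letters were not in the window of Tead2. The 30 bases around each match are given 5′ to 3′ on the strand that reads CATTCC, with the element in capitals, because TEAD binding is what joins the factors to the targets described here.
Cyr61, chr3:145650071-145650100, 103 bases before the start: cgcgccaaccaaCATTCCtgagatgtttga
Ankrd1, chr19:36120037-36120066, 210 bases before the start: atgtgagagggtCATTCCtttggcagtgac
Ankrd1, chr19:36119950-36119979, 123 bases before the start: caggtgaattttCATTCCagacttagtgtc
Amotl2, chr9:102717727-102717756, 65 bases before the start: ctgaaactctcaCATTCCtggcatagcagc
Yap1, chr9:8004720-8004749, 141 bases before the start: tgcgcgtcgctaCATTCCtgcagactcccg
Wwtr1, chr3:57576029-57576058, 136 bases before the start: agcgcctatctgCATTCCtttgagtttacc
Tead3, chr17:28350970-28350999, 182 bases before the start: tcccgcgcacccCATTCCtcgctcgtcgtc

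The match of Cyr61 and that of Amotl2 lie on the strand of the gene, and the others lie on the opposite strand. The whole windows of the 3 targets are shown, each on the gene's own strand with the element in capitals, since these are the targets whose windows were at hand. The AP-1 element TGANTCA, present in the first window of 7.93% of genes, and the CArG box that SRF binds, in that of 1.57%, had no match in the 7 windows. A match is a description of letters and was not tested for binding.
Cyr61, chr3:145649936-145650235, minus strand: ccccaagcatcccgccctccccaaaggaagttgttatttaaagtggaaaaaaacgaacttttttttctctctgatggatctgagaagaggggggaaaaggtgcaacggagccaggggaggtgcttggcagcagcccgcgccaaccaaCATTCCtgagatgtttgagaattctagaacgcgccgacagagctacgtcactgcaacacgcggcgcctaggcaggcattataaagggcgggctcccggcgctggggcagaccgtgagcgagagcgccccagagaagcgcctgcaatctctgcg
Ankrd1, chr19:36119795-36120094, minus strand: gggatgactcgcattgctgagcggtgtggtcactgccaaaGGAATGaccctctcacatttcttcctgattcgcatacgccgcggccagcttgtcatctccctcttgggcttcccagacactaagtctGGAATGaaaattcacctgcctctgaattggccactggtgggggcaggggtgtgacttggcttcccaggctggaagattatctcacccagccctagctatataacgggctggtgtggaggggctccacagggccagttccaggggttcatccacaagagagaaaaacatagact
Amotl2, chr9:102717554-102717853, plus strand: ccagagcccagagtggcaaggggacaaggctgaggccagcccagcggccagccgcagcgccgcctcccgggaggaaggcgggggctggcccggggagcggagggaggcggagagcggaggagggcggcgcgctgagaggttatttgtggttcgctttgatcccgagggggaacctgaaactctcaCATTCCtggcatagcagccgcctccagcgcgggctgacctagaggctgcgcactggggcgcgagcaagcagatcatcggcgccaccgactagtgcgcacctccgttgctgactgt

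Ctgf, Cyr61, Ankrd1 and Amotl2, the 4 targets, rose with age in both genotypes, as did Tead4, while Wwtr1 fell in both. Yap1 rose in KO, and in WT it fell slightly, a call that depended on the scaling. Tead1 was higher and Tead2 lower in aged KO than in every other group. The values of each gene are given in the order of the groups above, per library, and log2 fold changes are from limma on log2(CPM + 0.5) with their standard error (SE).

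Yap1 (chr9:7932000-8004596, minus strand on mm10) encodes the coactivator YAP. It measured 79.2, 76.9 and 72.9 CPM in young WT, 67.0, 62.9 and 57.9 in aged WT, 55.6, 73.2 and 58.6 in young KO, and 97.2, 92.2 and 85.2 in aged KO. The aged KO libraries were above every other library, the aged WT libraries were below every young WT library, and the young KO libraries overlapped both WT groups. With age the log2 change was -0.29 ± 0.093 in WT (adjusted p = 0.0177) and 0.56 ± 0.093 in KO (adjusted p = 0.000144), which are opposite directions. The difference between the age effects was 0.84 ± 0.131 (adjusted p = 0.000109). KO was higher than WT at 12 months by 0.54 ± 0.093 (adjusted p = 0.000154). At 2 months KO was lower by a log2 difference of -0.30 ± 0.093 (adjusted p = 0.0449). Both the fall in WT and the lower level of young KO missed the threshold when the 12 libraries were scaled together (adjusted p = 0.0569 and 0.2), and the fall in WT also without replicate 3 of aged WT (adjusted p = 0.0763).

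Wwtr1 (chr3:57455643-57575910, minus strand) encodes TAZ, the paralogue of YAP. Its levels were 395.6, 380.5 and 384.0 CPM in young WT, 269.1, 283.1 and 239.1 in aged WT, 398.9, 400.3 and 391.8 in young KO, and 283.9, 294.9 and 263.8 in aged KO. All aged libraries were below all young libraries, and the genotypes overlapped at each age. The log2 change with age was -0.55 ± 0.062 in WT (adjusted p = 4.25e-06) and -0.50 ± 0.062 in KO (adjusted p = 1.02e-05). The difference between these 2 effects was 0.05 ± 0.088 (adjusted p = 0.613). KO and WT differed by 0.04 ± 0.062 at 2 months and 0.09 ± 0.062 at 12 months (adjusted p = 0.748 and 0.198), neither passing the threshold.

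Tead1 (chr7:112679319-112906805, plus strand) encodes a TEAD factor required for heart development in the mouse. It measured 61.3, 53.3 and 56.5 CPM in young WT, 51.8, 56.8 and 53.4 in aged WT, 59.9, 58.3 and 58.4 in young KO, and 112.1, 119.8 and 99.0 in aged KO. Every aged KO library lay above all others, and young WT overlapped both aged WT and young KO. The rise with age in KO was 0.90 ± 0.072 on the log2 scale (adjusted p = 1.63e-07), against -0.08 ± 0.072 in WT (adjusted p = 0.382). These effects differed by 0.97 ± 0.102 (adjusted p = 2.96e-06).

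Tead2 (chr7:45215752-45233619, plus strand), which lies on the same chromosome as Tead1, showed the opposite pattern. Its levels were 40.3, 53.4 and 47.4 CPM in young WT, 44.0, 42.9 and 39.2 in aged WT, 44.5, 44.3 and 46.9 in young KO, and 19.1, 19.0 and 20.6 in aged KO. The aged KO libraries were below all others, and young WT spanned the values of young KO and overlapped aged WT. The log2 change with age was -1.19 ± 0.088 in KO (adjusted p = 6.86e-08) and -0.15 ± 0.088 in WT (adjusted p = 0.154), with a difference of -1.04 ± 0.124 (adjusted p = 9.94e-06). Replicate 1 of young WT, the library that stood apart, was the lowest of its group for Tead2, and without it the change in WT was -0.26 with an adjusted p of 0.00845.

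Tead3 (chr17:28331672-28350805, minus strand) had few reads, 201 to 860 per library. It measured 6.0, 7.4 and 6.5 CPM in young WT, 5.7, 6.7 and 5.8 in aged WT, 6.1, 5.4 and 5.3 in young KO, and 6.7, 6.8 and 8.3 in aged KO. The aged KO libraries were above the aged WT and the young KO libraries but overlapped young WT. Its log2 change with age in KO was 0.35 ± 0.110 (adjusted p = 0.0137), which became 0.25 with an adjusted p of 0.0655 without replicate 3 of aged KO. The genotype difference at 12 months, 0.25 ± 0.110, did not pass (adjusted p = 0.0605), though it passed with all 12 libraries scaled together (adjusted p = 0.0407).

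Tead4 (chr6:128227142-128300813, minus strand), the TEAD gene needed for the trophectoderm of the mouse embryo, rose with age in both genotypes and was lower in KO at both ages. Its levels were 5.1, 4.4 and 5.0 CPM in young WT, 14.9, 14.0 and 15.1 in aged WT, 3.3, 3.3 and 3.3 in young KO, and 6.1, 5.4 and 5.6 in aged KO. None of the 4 groups overlapped another. Reads were few in the young groups, 208 to 239 per library in WT and 121 to 154 in KO. The log2 rise with age was 1.505 ± 0.083 in WT (adjusted p = 3.87e-09) and 0.70 ± 0.083 in KO (adjusted p = 6.31e-06), a difference of -0.80 ± 0.118 (adjusted p = 6.51e-05). Among young mice the log2 difference of KO from WT was -0.50 ± 0.083 (adjusted p = 0.00128). Among aged mice it was -1.30 ± 0.083 (adjusted p = 1.3e-08).

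Ctgf (chr10:24595441-24598682, plus strand; now also named Ccn2) encodes connective tissue growth factor, a secreted matrix-associated protein and a standard readout of YAP and TAZ. It measured 145.7, 146.1 and 149.0 CPM in young WT, 530.9, 496.4 and 490.6 in aged WT, 140.4, 160.2 and 125.7 in young KO, and 318.1, 272.1 and 270.7 in aged KO. The young groups overlapped, and aged WT lay above aged KO, which lay above both young groups. The log2 rise with age was 1.78 ± 0.082 in WT (adjusted p = 6.6e-10) and 1.01 ± 0.082 in KO (adjusted p = 1.69e-07). The rise was smaller in KO by a log2 difference of -0.77 ± 0.116 (adjusted p = 8.82e-05).

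Cyr61 (chr3:145646970-145649985, minus strand; Ccn1) encodes a secreted protein of the same CCN family as Ctgf, and its order at 12 months was the reverse of that of Ctgf. Its levels were 38.4, 36.1 and 35.8 CPM in young WT, 80.2, 76.9 and 78.6 in aged WT, 36.4, 40.6 and 33.1 in young KO, and 195.6, 199.0 and 234.8 in aged KO. All aged KO libraries were above all aged WT libraries, while the young groups overlapped. The log2 rise with age was 1.09 ± 0.080 in WT (adjusted p = 6.96e-08) and 2.50 ± 0.080 in KO (adjusted p = 3.67e-11), a difference of 1.41 ± 0.114 (adjusted p = 2.31e-07). At 12 months the genotype difference was 1.41 ± 0.080 for Cyr61 (adjusted p = 4.18e-09) and -0.82 ± 0.082 for Ctgf (adjusted p = 1.16e-06).

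Ankrd1 (chr19:36111964-36119844, minus strand) encodes an ankyrin repeat protein of the nucleus and of the sarcomere of striated muscle. It measured 9.4, 9.8 and 9.3 CPM in young WT, 78.6, 74.4 and 80.4 in aged WT, 2.4, 3.0 and 3.6 in young KO, and 23.2, 24.6 and 23.9 in aged KO. No group overlapped another, and KO was below WT at both ages. The log2 rise with age was 2.97 ± 0.102 in WT (adjusted p = 3.9e-11) and 2.81 ± 0.102 in KO (adjusted p = 1.04e-10), with a difference of -0.16 ± 0.145 (adjusted p = 0.374). The log2 difference of KO from WT was -1.53 ± 0.102 among young (adjusted p = 9.23e-07) and -1.68 ± 0.102 among aged libraries (adjusted p = 7.61e-09). The lowest group rested on 89 to 141 reads per library.

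Amotl2 (chr9:102717803-102733417, plus strand) encodes an angiomotin, a junction protein that binds YAP and holds it outside the nucleus, and is itself a YAP target. Its levels were 6.5, 8.3 and 7.1 CPM in young WT, 42.0, 48.3 and 44.7 in aged WT, 5.8, 6.0 and 6.1 in young KO, and 31.9, 22.2 and 26.3 in aged KO. Each aged library was above each young library, and aged KO was below aged WT. The log2 rise with age was 2.54 ± 0.119 in WT (adjusted p = 7.31e-10) and 2.06 ± 0.119 in KO (adjusted p = 6.32e-09). The difference of -0.48 ± 0.168 between the effects (adjusted p = 0.0253) lost its call without replicate 1 or 3 of young WT, replicate 2 of aged WT, replicate 3 of young KO or replicate 2 of aged KO, with adjusted p of 0.0502 to 0.0645.

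**Figure D1:**
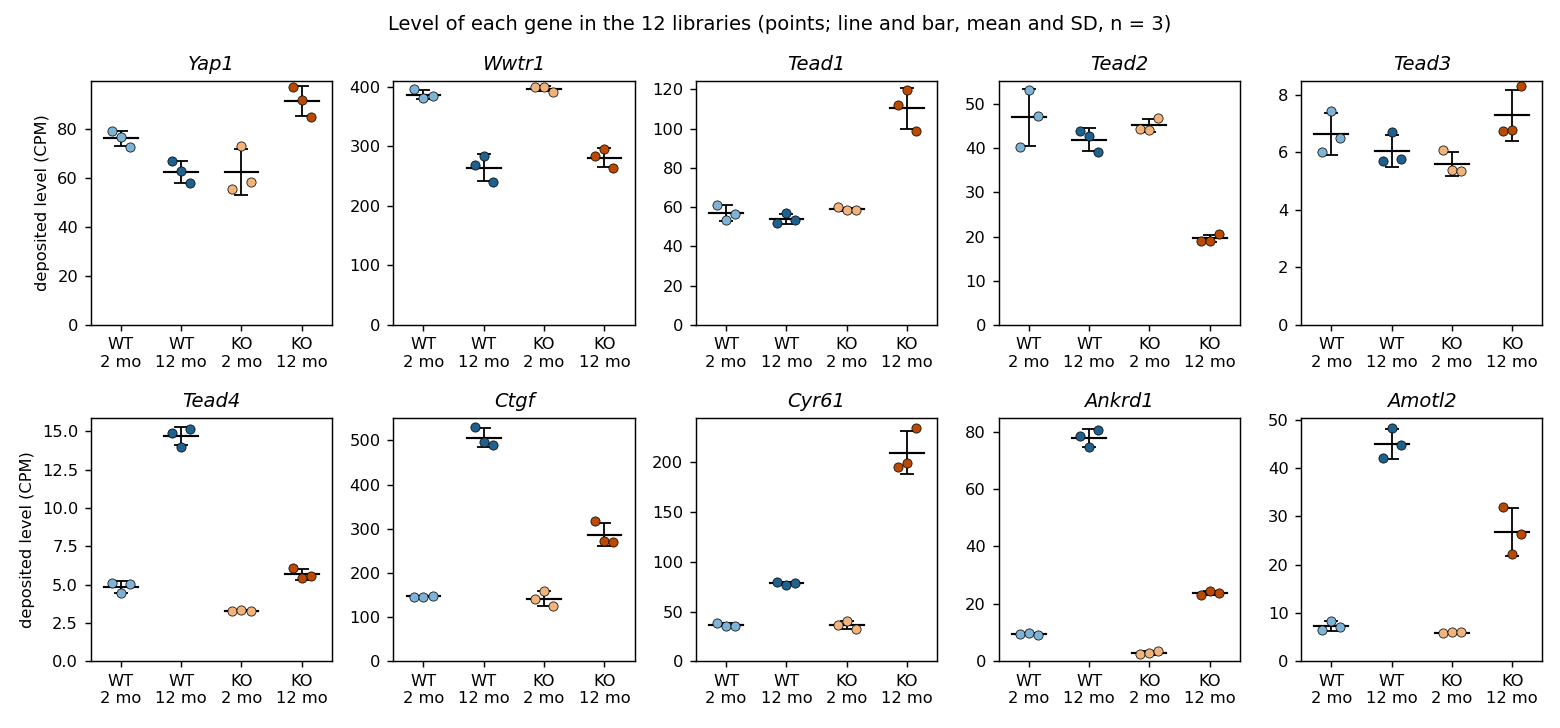
Deposited level in CPM (vertical axis, from 0) of each of the 10 genes in the 12 libraries, by genotype and age. Points are libraries, and the line and bar are the mean and SD of 3 libraries. Ctgf, Cyr61, Ankrd1 and Amotl2 are higher at 12 months in both genotypes, Tead1 is at 99.0 to 119.8 in aged KO, and Tead2 is at 19.0 to 20.6 there.

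Counted together, 5 of the 10 genes were higher and 2 lower with age in WT, where 22.3% of the 13961 genes tested were called higher and 35.6% lower. With age in KO, 8 were higher and 2 lower, against 32.9% and 34.2% of all genes. KO compared with WT at 2 months had 0 genes higher and 3 lower (Yap1, Tead4 and Ankrd1), beside 1.86% and 14.2% of all genes. None of the 10 was higher there at an unadjusted limma p under 0.05 either, and edgeR and DESeq2 also called 0 higher. KO compared with WT at 12 months had 3 higher (Yap1, Tead1 and Cyr61) and 5 lower (Tead2, Tead4, Ctgf, Ankrd1 and Amotl2), beside 31.3% and 38.9%. The age effects differed between genotypes for 8 genes, 4 with the more positive effect in KO and 4 with the more positive effect in WT, beside 31.4% and 26.2% of all genes. The median log2 change of the 10 genes was 0.50 for age in WT and 0.80 for age in KO, where the medians of all genes were -0.08 and -0.02. For the genotype at 2 and at 12 months the medians were -0.14 and -0.33, beside -0.09 and -0.07 for all genes. The 10 genes were not sampled at random, so the counts describe them and nothing beyond them. The 2-month genotype comparison also depended on scaling, since 11.5% of its calls were higher as deposited and 29.2% with the 12 libraries scaled together.

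**Figure D2:**
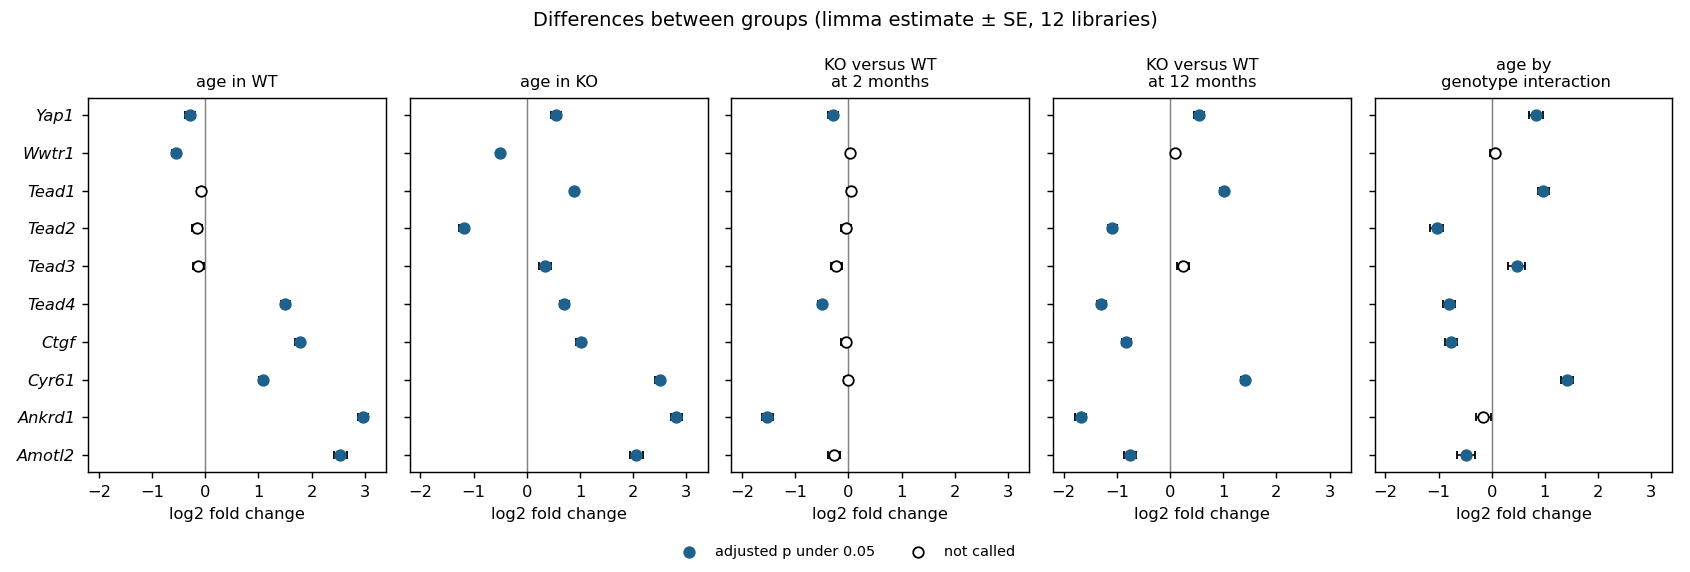
Log2 fold change (horizontal axis) of the 10 genes in the 5 comparisons, estimated by limma over 12 libraries with bars of 1 SE. Filled points passed an adjusted p under 0.05. The 4 targets lie to the right of 0 in both age comparisons, and at 12 months Cyr61, at 1.41, lies on the other side of 0 from Ctgf, at -0.82.

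Levels of different genes were compared after division by the length of each gene's merged exons, as CPM per kb. In both young groups Wwtr1 was the highest of the 10, with 80.9 ± 1.65 (SD, n = 3) CPM per kb in WT and 83.1 ± 0.959 in KO. Ctgf came next at 51.4 ± 0.633 and 49.7 ± 6.04, followed by Cyr61 at 18.2 in each. In aged WT Ctgf led with 177 ± 7.62, above Wwtr1 with 55.2 ± 4.7, Cyr61 with 38.9 ± 0.824 and Ankrd1 with 27.0 ± 1.06. In aged KO Cyr61 at 104 ± 10.8 and Ctgf at 100 ± 9.43 overlapped, and both were above Wwtr1 at 58.8 ± 3.31. Tead3 had the lowest mean of the 10 in every group, from 0.834 ± 0.0621 to 1.08 ± 0.134 CPM per kb. Its libraries overlapped those of the next gene, Amotl2, in young WT, and in the other groups they did not overlap their neighbour. Other neighbours that overlapped were Tead2 and Yap1, and Tead4 and Amotl2, in young WT, Amotl2 and Yap1, and Tead4 and Tead1, in aged WT, Ankrd1, Amotl2 and Tead4 in young KO, and Ankrd1 and Tead1, and Amotl2 and Tead2, in aged KO. With the length of the longest transcript, Tead3 ranked 8 in young WT, 7 in young KO and 9 in aged KO, and Ctgf was ahead of Cyr61 in aged KO.

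The summed level of the 4 Tead genes was 16.4 ± 1.08 CPM per kb in young WT, 17.7 ± 0.476 in aged WT, 15.5 ± 0.269 in young KO and 14.9 ± 0.468 in aged KO. Within that sum the shares differed between groups. Tead2 made up 59.8% ± 4.4 of it in young WT and 60.8% ± 1.08 in young KO, 49.5% ± 1.75 in aged WT and 27.5% ± 2.12 in aged KO. Tead1 made up 25.8% ± 3.55, 27.9% ± 0.623 and 22.4% ± 1.08 in those first 3 groups, and 54.6% ± 3.53 in aged KO. The share of Tead4 was highest in aged WT, at 23.0% ± 1.45, against 5.88% ± 0.156 to 10.6% ± 0.745 in the other groups. So the leading Tead transcript was Tead2 in 3 groups and Tead1 in aged KO, and all 3 libraries of each group had that order.

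Wwtr1 exceeded Yap1 per kb in every library. The ratio was 9.82 ± 0.335 in young WT, 8.16 ± 0.492 in aged WT, 12.5 ± 1.7 in young KO and 5.95 ± 0.272 in aged KO, where all 3 libraries were below the others. Its size depends on the length used, being 5.7 and 3.46 in the first and last of these groups with the longest transcript. The ratio of Ctgf to Cyr61 was 2.82 ± 0.132 in young WT and 2.73 ± 0.0506 in young KO, rose to 4.54 ± 0.133 in aged WT and was 0.975 ± 0.167 in aged KO. All aged WT libraries were above the young libraries in this ratio, and all aged KO libraries were below them.

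**Figure D3:**
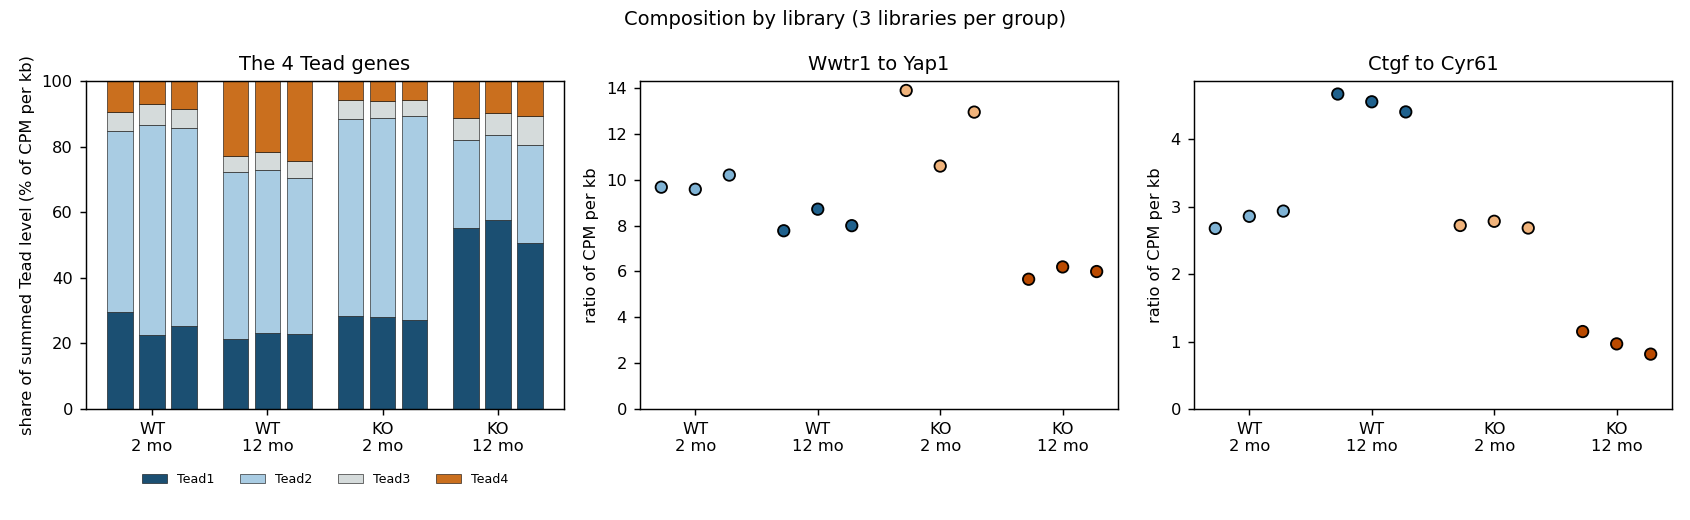
Left, share of each Tead gene in the summed Tead level (percent of CPM per kb) in each of the 12 libraries. Middle and right, ratios of CPM per kb of Wwtr1 to Yap1 and of Ctgf to Cyr61 by library. In aged KO Tead1 takes 50.7% to 57.6% of the Tead sum and the ratio of Ctgf to Cyr61 is 0.813 to 1.15.

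Ctgf, Cyr61, Ankrd1 and Amotl2 belong to a published set of 22 YAP and TAZ target genes derived from human tumours. Of the other 18 genes of that set, 9 were higher and 6 lower with age in WT, with a median log2 change of 0.18, beside 22.3% and 35.6% of all genes. With age in KO 10 were higher and 4 lower, with a median of 0.24, beside 32.9% and 34.2%. In WT the log2 rises of Nt5e (1.54), an ectonucleotidase, and Crim1 (1.09) were below those of Ctgf, Ankrd1 and Amotl2 and not below that of Cyr61 (1.09). In KO Igfbp3 (2.12) and Axl (1.07) rose by more than Ctgf (1.01), and Igfbp3 by more than Amotl2 (2.06), and these differences between genes were not tested. Crim1, a transmembrane protein that binds growth factors, rose in both genotypes, from 24.25 to 52.18 CPM in WT and from 18.43 to 36.81 in KO. Axl, a receptor tyrosine kinase, fell from 569.4 to 363.6 CPM in WT and rose from 515.6 to 1088 in KO. Igfbp3, which binds insulin-like growth factors, fell from 130.7 to 108.2 CPM in WT and rose from 67.77 to 298.2 in KO. Nt5e went the other way, rising from 46.35 to 135.1 CPM in WT and falling from 54.36 to 31.58 in KO. Fjx1, the relative of the fly planar polarity gene four-jointed, fell in both, from 41.09 to 23.05 and from 43.74 to 14.81 CPM.

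Comparing KO with WT at 12 months, 7 of the 18 were higher and 7 lower, with a median of 0.02, beside 31.3% and 38.9% of all genes. The differences in age effect were positive for 6 and negative for 5, with a median of 0.08, beside 31.4% and 26.2%. At 2 months 3 were higher and 4 lower, with a median of -0.14, beside 1.86% and 14.2%. Of the whole set of 22, 5 were lower at 2 months, and edgeR called 3 of the 22 lower. Axl, Igfbp3, Rbms3, Asap1, Ccdc80, F3 and Foxf2 shared with Cyr61 a higher level in aged KO than in aged WT. A lower level there was shared by Nt5e, Crim1, Ptpn14, Fjx1, Lats2, Arhgef17 and Nuak2 with Ctgf, Ankrd1 and Amotl2.

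**Figure D4:**
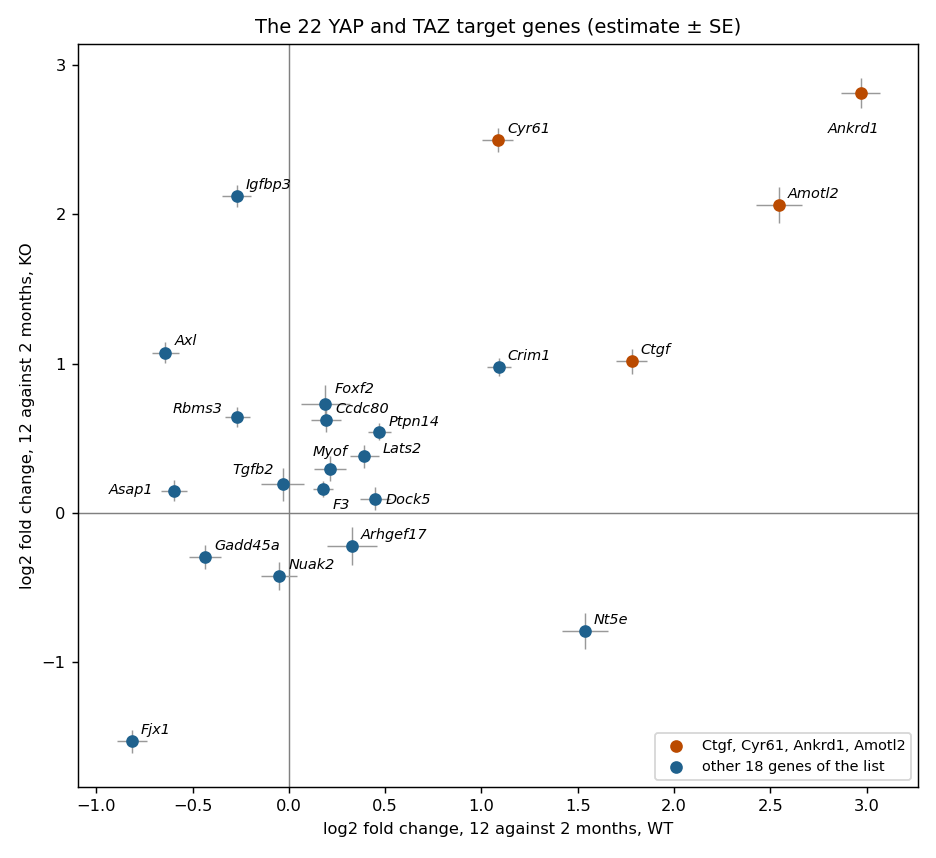
Log2 fold change from 2 to 12 months in WT (horizontal axis) against that in KO (vertical axis) for the 22 target genes, with bars of 1 SE. Orange points are Ctgf, Cyr61, Ankrd1 and Amotl2, all in the upper right, and blue points are the other 18. Of these Axl, Igfbp3, Rbms3, Asap1 and Tgfb2 are in the upper left, and Nt5e and Arhgef17 are in the lower right.

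The CCN family, of which Ctgf and Cyr61 are founding members, has 4 other genes in the table, and 3 of these passed the filter. Wisp2 rose with age in both genotypes, from 1.643 to 31.73 CPM in WT and from 0.7947 to 14.26 in KO. Nov fell in WT from 63.91 to 33.01 CPM and rose in KO from 45.68 to 88.91. Wisp1 fell in both, from 269.1 to 166.4 and from 382.5 to 160.1 CPM. Ctgf and Wisp2 were lower in aged KO than in aged WT, and Cyr61 and Nov were higher.

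Among 15 Hippo kinases and scaffolds, 6 were higher and 3 lower with age in WT (22.3% and 35.6% of all genes), and 8 were higher and 3 lower with age in KO (32.9% and 34.2%). KO exceeded WT at 12 months for 6 and was below it for 6, which is near the 31.3% and 38.9% of all genes. Lats1, a kinase that phosphorylates YAP and TAZ, was at 130.5, 126.3 and 129.7 CPM in the first 3 groups and at 200.4 in aged KO, a log2 rise of 0.62 with age in KO. Lats2, its paralogue and itself a target, rose with age in both genotypes, from 62.53 to 82.1 and from 53.9 to 70.03 CPM. Sav1, the scaffold of the MST kinases, and Frmd6, an upstream FERM protein, were higher in aged KO than in aged WT by 0.71 and 0.78 on the log2 scale. Wwc1, which encodes the scaffold KIBRA, went with age from 2.218 to 40.14 CPM in WT and in KO from 2.216 to 3.472, a log2 change of 3.92 and 0.56.

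Of 15 regulators at the membrane and at junctions, 5 were higher and 5 lower with age in WT, and 4 were higher and 7 lower with age in KO. These counts are not far from the shares of all genes, 22.3% and 35.6% in WT and 32.9% and 34.2% in KO. At 12 months KO was higher for 4 and lower for 10, beside 31.3% and 38.9%. The angiomotins other than Amotl2 fell with age, Amot from 120.3 to 96.9 CPM in WT and from 103.6 to 56.32 in KO, and Amotl1 from 584.0 to 487.9 and from 519.6 to 424.6. Ajuba, a LIM protein that inhibits LATS kinases, rose in WT from 10.69 to 48.91 CPM and fell in KO from 11.31 to 7.147. Inadl, a polarity scaffold also named Patj, rose in WT from 10.48 to 77.04 CPM and in KO from 9.888 to 14.09. At 2 months 1 of the kinases and scaffolds and 5 of these regulators were lower in KO, beside 14.2% of all genes. The counts became 0 and 2 with the 12 libraries scaled together, and 0 and 1 without replicate 1 or without replicate 3 of young KO. The count of regulators was also 2 or 3 without replicate 2 or 3 of young WT, replicate 1 or 2 of aged WT, replicate 2 of young KO or replicate 1 of aged KO. That of the kinases and scaffolds was 0 without replicate 2 of young WT, 2 without replicate 1 of young WT and 3 with a replicate block.

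Vgll proteins bind TEADs on the surface that YAP and TAZ use. Vgll1 and Vgll2 were at or below 0.053 CPM on average in every group and were not tested. Vgll3 was at 28.71 ± 2.02 CPM in young WT, 38.94 ± 3.13 in aged WT, 22.9 ± 0.579 in young KO and 168.8 ± 10.1 (SD, n = 3) in aged KO, a log2 rise of 0.43 in WT and 2.85 in KO. Vgll4, which represses TEAD targets, rose in WT from 19.43 to 30.58 CPM and fell in KO from 15.72 to 10.88. STRIPAK is the phosphatase complex that removes activating phosphates from MST kinases. Of 15 of its components 2 were higher and 4 lower with age in WT, beside 22.3% and 35.6% of all genes, and the 4 were 2 with the 12 libraries scaled together, with edgeR and with DESeq2. With age in KO 4 were higher and 4 lower, beside 32.9% and 34.2%, and the 4 higher were 2 without replicate 1 or 3 of young KO or replicate 2 of aged KO.

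**Figure D5:**
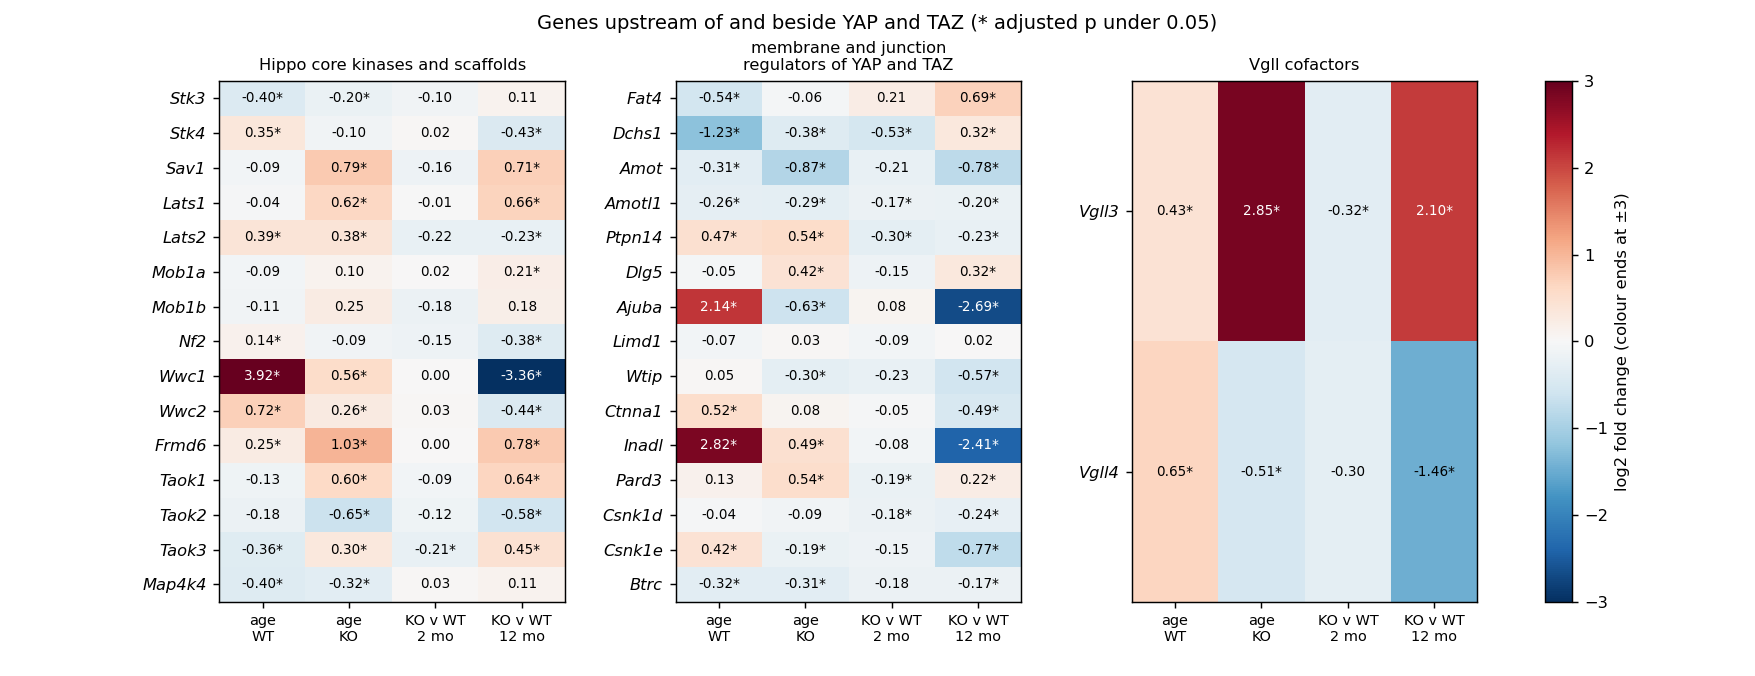
Log2 fold changes of the Hippo kinases and scaffolds, the membrane and junction regulators and the tested Vgll genes in the age comparisons and in KO against WT at each age. Red is higher and blue is lower, colours end at 3 on either side, and an asterisk marks an adjusted p under 0.05. Wwc1, Inadl and Ajuba have the largest values for age in WT, at 3.92, 2.82 and 2.14, and Vgll3 has the largest for age in KO, at 2.85.

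Actin and MRTF-SRF genes were counted because YAP, TAZ and SRF respond to actin tension and share targets such as Ctgf, Cyr61 and Ankrd1. Of 16 such genes, 10 were higher and 1 lower with age in WT, where 22.3% and 35.6% of all genes were called, and the 1 lower was 2 without replicate 1 of young WT. With age in KO 4 were higher and 7 lower, beside 32.9% and 34.2% of all genes. At 12 months 2 were higher and 11 lower in KO than in WT, beside 31.3% and 38.9%. Tpm1, a tropomyosin, rose in WT from 278.8 to 749.2 CPM and fell in KO from 299.6 to 209.5. Cnn2, a calponin, rose in WT from 53.06 to 156.2 CPM and fell in KO from 66.1 to 27.23. The 4 that rose in KO, as the 4 targets did, were Zyx by a log2 change of 0.82, Mkl2 by 0.71, and Tagln2 and Myh9 by 0.33 each.

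Markers of cell types moved with the same comparisons, and in bulk RNA fewer cells of a type and less RNA per cell cannot be told apart. The 10 luminal markers summed to 334.9 to 411.8 CPM in young WT, 4037 to 4188 in aged WT, 465.8 to 540.5 in young KO and 492.1 to 524.5 in aged KO. All 10 rose with age in WT, where 22.3% of all genes were called higher and 35.6% lower. With age in KO 3 rose (5 without replicate 1 or 2 of young WT) and 2 fell, beside 32.9% and 34.2% of all genes. The 10 basal markers summed to 78.24 to 94.93, 360.6 to 377.4, 94.27 to 95.72 and 115.2 to 121.4 CPM in the same order. With age 10 of them rose in WT, and in KO 6 rose and 1 fell. For the 10 fibroblast markers the sums were 16430 to 18800, 11770 to 12130, 15690 to 16790 and 16330 to 19690 CPM. With age 1 rose and 8 fell in WT, and 5 rose and 4 fell in KO. The 8 endothelial markers summed to 112.1 to 123.1, 122.8 to 131.2, 68.49 to 75.49 and 269.4 to 286.5 CPM. All 8 rose with age in KO, and in WT 2 rose and 1 fell. Beside Ankrd1, a muscle gene too, the 11 skeletal muscle markers summed to 1005 to 1185, 201.4 to 221.9, 293.4 to 342.1 and 844.9 to 1585 CPM. Ttn made up most of these sums, with means of 711.0 CPM in young WT and 1046 in aged KO. The other 10 markers each had a lower mean in aged KO than in young WT. Of the 11, the 10 that were tested all fell with age in WT, where Ankrd1 rose. With age in KO 6 of those tested rose and 1 fell, and Ankrd1 rose. At 2 months all 10 tested were lower in KO than in WT, as Ankrd1 was, beside 14.2% of all genes. At 12 months 9 of the 10 were higher in KO, beside 31.3% of all genes, while Ankrd1 was lower. The 8 leukocyte markers summed to 1059 to 1320, 769.8 to 849.6, 855.4 to 944.4 and 266.1 to 481.6 CPM, and Cd3e had no read in 3 groups and 1 to 9 reads per library in aged KO. The 10 division markers summed to 1621 to 1836, 549.8 to 568.6, 1571 to 1736 and 511.0 to 711.8 CPM, and all 10 fell with age in both genotypes. The part of these shifts in the differences of the 10 genes was not tested.

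For each gene, those with the most similar profile were found by the root mean square difference of their log2 levels over the 12 libraries, after each profile was centred, among 10515 genes whose mean reached 5 CPM. The closest to Ctgf were Lpcat2 at 0.095, Runx1 at 0.102 and Rhou at 0.108. Cyr61 had as neighbours Trib1 at 0.172, Tnfaip3 at 0.177 and Nfkbiz at 0.178, all with their highest mean in aged KO. Ankrd1 was nearest to Pdk4 at 0.21, and Amotl2 to Kcnj15 and Cp, both at 0.256. Tead4 was nearest to Gstt3 at 0.113, Tead1 to Elk4 at 0.06, Tead2 to Hn1 at 0.078, Tead3 to Ubac2 at 0.085, Yap1 to Asah2 at 0.082 and Wwtr1 to Fam96a at 0.055. None of the 10 was among the 5 nearest genes of another. Within the 10, the closest pairs were Yap1 and Tead3 at 0.211, Yap1 and Tead1 at 0.276, and Tead4 and Ctgf at 0.286, and Wwtr1 and Ankrd1 were farthest apart at 1.908. These are descriptions over libraries that share groups and scaling, with no test.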

How the data were processed

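The 12 libraries were grouped by the genotype and age in the labels. Per the labels' protocols, the PicoPure kit was used for RNA and the TruSeq Stranded total RNA kit for libraries. Per the submitters' processing notes, the tools were TopHat2 2.1.0, Bowtie2 2.2.4, SAMtools 0.1.18 and HTSeq 0.6.1p1, with mm10. Neither the annotation nor the strand setting of the counting is given in the sources used here. Per the file headers, the authors scaled the deposited signal values, which are CPM, by TMM in edgeR. Dividing by the CPM of 1 read gave whole reads within 0.1 for 100% of values above 0, and these reads gave the totals. A count of 3 reads stood for 0.029 to 0.0859 CPM per library, and such floors cover counting error only.

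Values were taken as log2(CPM + 0.5), which understates fold changes of low genes, for the 13961 genes whose mean reached 0.5 CPM. limma-trend (limma 3.58.1, R 4.3.3) fitted 1 model of 4 groups to the 12 libraries, leaving 8 residual degrees of freedom, for 5 comparisons: age in each genotype, genotype at each age, and their interaction (KO age effect less WT age effect). Adjustment was by Benjamini-Hochberg over all genes of a comparison, and genes were called at an adjusted p under 0.05. The steps were run on simulated data in which few genes changed, in aged WT only, with TMM over all 12 libraries. That run cannot show how they behave with the deposited scaling or with as many changed genes as here. Replicates of a group differed by more than counting noise, with a chi-square of 6.4 to 76.7 per degree of freedom. Counting noise alone thus did not account for their spread, which does not show that they came from separate libraries, mice or cultures.

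Named list genes are up to 4 called members per list and comparison with the smallest p, plus further members chosen after their values were seen. The 10 genes and the gene lists were chosen with earlier results of these data known. Of 162 listed symbols, 3 were matched through older names. Lengths are merged exons in GENCODE vM21 (GRCm38, the same assembly as mm10). Promoters are from RefSeq. Predicted genes were left out of the search for similar profiles. Alternatives were other pseudocounts and filters, TMM over all 12 libraries, edgeR 4.0.16 and DESeq2 1.42.0 on the recovered reads, a replicate block, the compared groups alone, leaving out each library and another gene length.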

Additional observations from a re-analysis of the deposited data

Results flagged for a closer look

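The age effect differed between genotypes for 8 of the 10 genes, by the test of the difference itself in limma (log2 change in KO minus that in WT, adjusted p under 0.05). It was more positive in KO for Cyr61 by 1.41, Tead1 by 0.97, Yap1 by 0.84 and Tead3 by 0.47. It was more negative in KO for Tead2 at -1.04, Tead4 at -0.80, Ctgf at -0.77 and Amotl2 at -0.48. All 3 libraries of aged KO lay above all young KO libraries for Cyr61, Tead1, Yap1 and Tead3, and below them for Tead2. For Tead4, Ctgf and Amotl2 the aged libraries were above the young libraries in both genotypes, with the smaller rise in KO. The interaction was called in either direction for a large share of all genes (31.4% higher and 26.2% lower), and the luminal markers, 10 of 10 more negative in KO, and the endothelial markers, 8 of 8 more positive, moved in the same test. Their part in the 8 differences was not tested.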

How the results depend on the processing

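Across 21 alternatives, 404 of 416 counts of called genes (of the 10 and of all genes) stayed within 1.5 times the reported count, and 994 of 1040 log2 changes of the 10 genes kept their direction and their side of the threshold. With age in WT, the number of the 10 genes called lower was 1 instead of 2 with TMM over all 12 libraries, edgeR and DESeq2, because Yap1 was lost (-0.22, -0.19 and -0.21, with adjusted p of 0.0569, 0.11 and 0.0701). Leaving out 1 library gave 1 to 3, the lowest without replicate 3 of aged WT. For KO against WT at 2 months, the counts of all genes called were 426 higher and 1032 lower with TMM over 12 libraries, 474 and 940 with edgeR and 529 and 1198 with DESeq2, against 259 and 1986. Without 1 library the lower count ran from 1234 to 2733, reaching 1234 without replicate 1 and 1297 without replicate 3 of young KO. Yap1 at 2 months missed the threshold in those 3 alternatives, with no filter (adjusted p = 0.0712) and in the compared groups alone (adjusted p = 0.0885). It also did so without any 1 of the young WT libraries, replicate 1 or 2 of aged WT, replicate 1 or 3 of young KO or replicate 2 of aged KO (adjusted p of 0.0536 to 0.2).

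Values near 0 changed sign under TMM over 12 libraries, edgeR and DESeq2 for KO against WT at 2 months, namely Tead2 (0.0403, 0.0474 and 0.0343), Ctgf (0.0331, 0.0554 and 0.0422) and Cyr61 (0.08, 0.1014 and 0.088). The interaction of Wwtr1 was -0.0121 and -0.0378 under the first pair, and Tead1 with age in WT was 0.0163 under edgeR. With 1 library left out, the 2-month genotype values ran from -0.1522 to 0.0477 for Tead2, -0.1445 to 0.0295 for Ctgf and -0.0818 to 0.0645 for Cyr61, and the Wwtr1 interaction from -0.0145 to 0.1071. None of these was called under any of the alternatives. TMM over 12 libraries rescales all genes of a library alike, on average by -0.0374 in young WT and 0.051 in young KO on the log2 scale. With it the median 2-month genotype value of all genes tested went from -0.088 to -0.004. The cause of the sign changes under the other alternatives was not tested. For age in WT, 38.6% of calls were higher as deposited (3120 against 4971 lower) and 50.9% with edgeR (3898 against 3766).

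Same-numbered libraries of different groups had correlated deviations in 8 of 18 pairs (r over 0.1, range -0.163 to 0.589). All pairs of replicate 1 (0.089 to 0.589) and of replicate 3 (0.031 to 0.375) were positive, while those of replicate 2 ran from -0.163 to 0.082. Pairs of unlike number ran from -0.561 to 0.418. Whether the numbers pair the samples was not settled by these values. With a replicate block the counts of the 10 genes higher and lower were 5 and 2, 8 and 2, 0 and 3, 3 and 5, and 4 and 4 for ageing of WT, ageing of KO, KO against WT when young, KO against WT when aged and the interaction, as without it, and all genes called ran from 302 higher and 2288 lower at 2 months to 4497 and 5582 at 12 months. TMM over all 12 libraries moved the mean log2 level of young WT by -0.0374 and of young KO by 0.051. Replicates spread by more than counting noise, so depth was not shown to be the limit.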
